A study of Mus musculus with 7 samples.

Results

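Csf1r encodes the receptor tyrosine kinase on which microglia depend for survival, and Csf1 and Il34 encode its ligands. These 3 genes, matched by name among the 55536 genes of the count matrices, were followed in the hippocampus of wild-type (WT) mice and of Arctic48 (Arc) mice, a model of amyloid plaque deposition. Transcripts were counted in 24 wells of nuclei, each from 1 mouse, and in 24 wells of cells selected with antibody beads against CD11b, a surface protein of microglia, each pooling 2 to 3 mice. The 4 groups were WT-veh and Arc-veh, which drank plain water, and WT-PMX and Arc-PMX, which drank water with 20 µg/ml of PMX205, a cyclic peptide that blocks the complement receptor C5aR1, for 12 weeks by the labels (the study's results describe a somewhat shorter course up to the same age). Arc mice are hemizygous for a human APP transgene with the Indiana, Swedish and Arctic mutations, and WT mice lack it. All mice were on the C57BL6/J background, were separately housed while treated and were perfused at 10 months of age. The labels place the transcription blockers actinomycin D and triptolide in the perfusion of all mice, whereas the study's methods name them, with anisomycin, only for the isolation of the CD11b-selected cells. Each group held 6 wells of nuclei and 6 of cells, from females (F1 to F3) and males (M1 to M3). The transgene's promoter is not given in the sources used here. The study left out 1 WT sample that looked like an Arc sample, without naming its well in the sources used here. All wells were therefore kept and none was relabelled.

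The CSF1 receptor spans the membrane. When either ligand joins a pair of receptors, their kinase domains phosphorylate each other and pass the signal on through adaptor proteins, PI3 kinase and ERK to drive survival, proliferation and differentiation of the mononuclear phagocyte lineage. CSF1 and IL-34 share little sequence but bind overlapping parts of the receptor, and in the brain their sources differ by region, with IL-34 made mostly by neurons of the forebrain and CSF1 more by glia. Mice that lack the receptor have almost no microglia, and inhibitors of its kinase are used to deplete them.

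Csf1 (ENSMUSG00000014599.10) lies on the minus strand of mm10 at chr3:107741048-107760469. Because glial Csf1 levels differed between the genotypes (described further on), the 300 bases around its start (250 before and 50 after it, chr3:107760420-107760719, minus strand, RefSeq annotation of GRCm38.p6) are shown, with matches to the frame of the NF-kB motif in capitals.
Csf1 promoter: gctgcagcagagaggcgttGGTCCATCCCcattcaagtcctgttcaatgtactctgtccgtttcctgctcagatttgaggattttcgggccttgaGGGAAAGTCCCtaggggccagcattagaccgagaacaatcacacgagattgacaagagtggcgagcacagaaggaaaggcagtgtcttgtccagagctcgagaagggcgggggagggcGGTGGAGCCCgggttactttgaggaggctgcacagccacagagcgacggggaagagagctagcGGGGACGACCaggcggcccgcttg
This frame, GGG and CC with 5 bases of any kind between them, searched on both strands, matched at 5 places, of which 2 overlap by all but 1 base. At least 1 match was held by 50.8% of the 32851 promoters of the same length. The share with 5 matches was not counted, so it is not known whether 5 is unusual, and binding was not tested. The PU.1 core GAGGAA, held by 28.3% of promoters, had no match in this window on either strand. The AP-1 frame, TGA and TCA around 1 base of any kind and held by 7.81%, had none, nor had TATAAA, held by 13.6%. Of the 3 members, 1 was matched in the promoter table.

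The nuclei that passed the filters numbered 43886 after removal of doublets, with 1150 to 3112 per well and 4389302 to 30001858 transcripts per well. Nuclei were clustered without the 3 members and named by markers, and levels are CPM (the gene's count scaled to all transcripts of that cell type in that well), given as mean ± SD over wells with at least 10 nuclei of the type. The microglial cluster held 1514 nuclei with a median of 1007.5 transcripts. It was led by Inpp5d, Ly86 and Dock2, and Itgam, P2ry12 and Cx3cr1 were among its markers. It held 134 nuclei in WT-veh and 128 in WT-PMX against 695 in Arc-veh and 557 in Arc-PMX, so 4, 5, 6 and 6 wells gave a microglial level. Of the WT-veh wells, F3 had 0 and M3 had 3 microglia. In the check of the labels, App had 454 to 580 CPM in the WT wells and 572 to 884 CPM in the Arc wells, ranges that overlapped slightly. Xist and Ddx3y separated the 12 female from the 12 male wells of this check, which did not take in the wells of both preparations.

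Among the named types of nuclei, the receptor was found in microglia and hardly elsewhere. Nuclei left without a name held 1990 of all 4126 Csf1r counts and are described further on. Csf1r (ENSMUSG00000024621.16) lies on the plus strand of mm10 at chr18:61100598-61132149. Csf1r stood at 1057 ± 363 CPM in microglial nuclei (n = 21), and its next level, in fibroblasts, was 15.6 ± 23.1 CPM (n = 12). T cells held 2 Csf1r counts in 49 nuclei (37.0 CPM pooled, exact 95% interval from 4.48 CPM) and reached 10 nuclei in 1 well, so they are left out of this order. Levels in all other named types were 4.12 CPM or lower, no neighbours among them differed beyond their spread, and pericytes had no count in 314 nuclei, which allows up to 7.33 CPM (3 counts). A Csf1r transcript was seen in 60.6% of microglial nuclei (Wilson 95% interval 58.1 to 63.0) and in 0.201% of astrocytes (0.112 to 0.360), although astrocytes had more transcripts per nucleus (median 1775). The intervals here cover counting error only. In the CD11b-selected cells the separation was weaker. Pooled over wells, Csf1r was at 427 CPM in pericytes (139 counts), 350 CPM in astrocytes, 226 CPM in endothelial cells and 137 CPM in choroid plexus cells. The clusters named microglia there ran from 545 to 1049 CPM. The source of these counts was not tested.

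**Figure D1:**
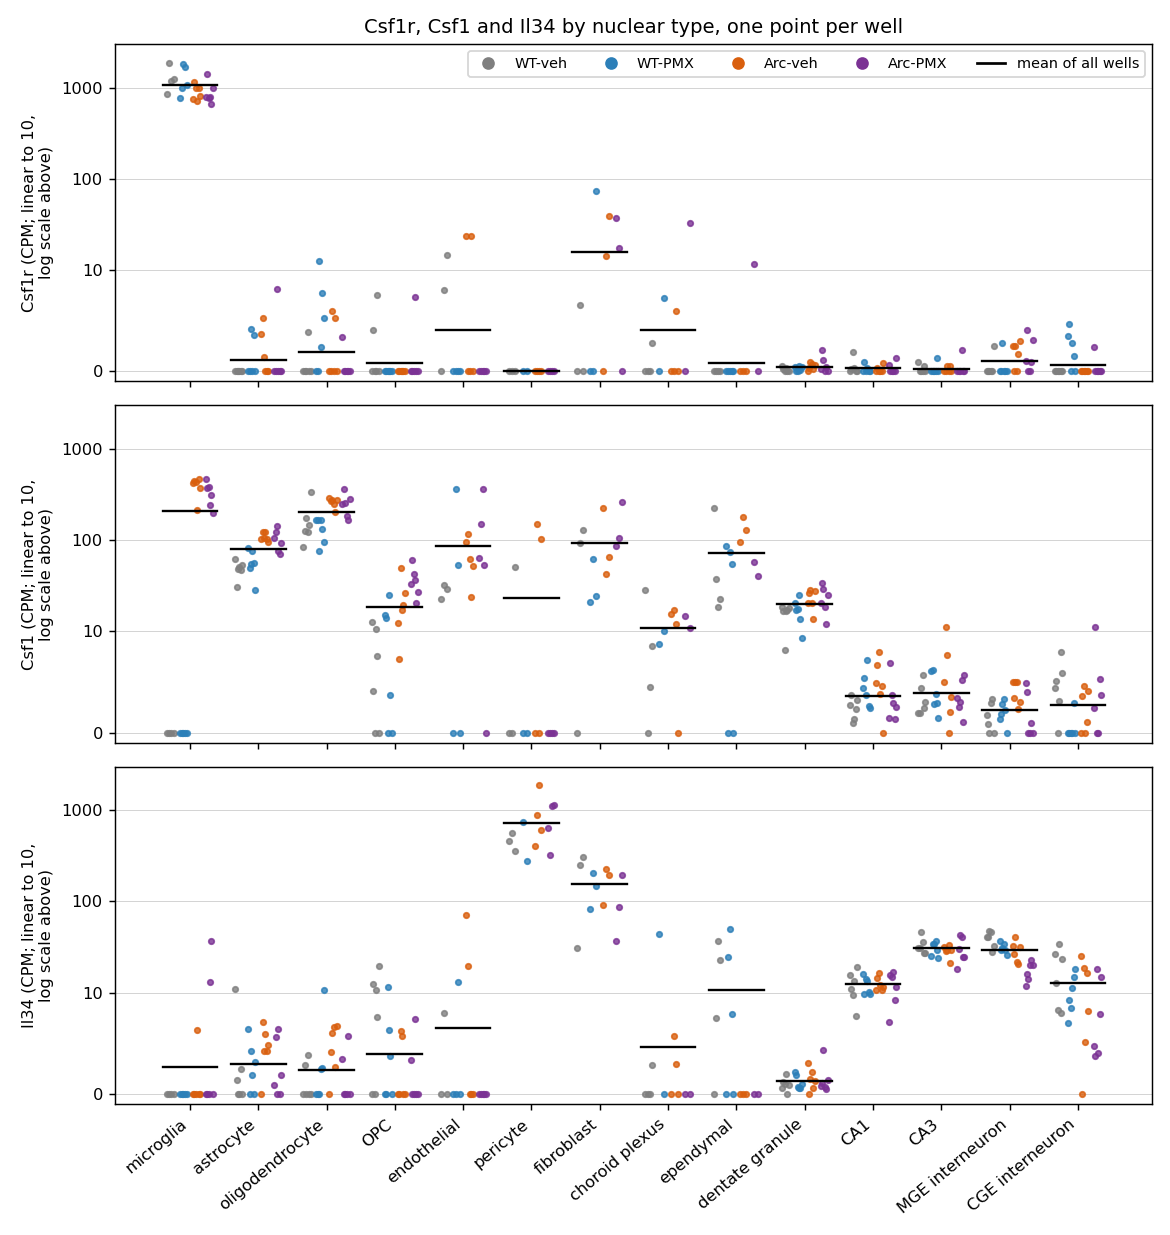
Levels of Csf1r, Csf1 and Il34 (CPM, linear up to 10 and on a log scale above) in 14 types of nuclei, 1 point per well with at least 10 nuclei of the type, coloured by group, with a bar at the mean of all wells. Csf1r is near 1000 CPM in microglia and far lower in the other types drawn, Csf1 is spread over glia, vascular cells and dentate granule neurons and splits by genotype in microglia, and Il34 is highest in pericytes. Unnamed nuclei are not drawn.

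The ligands were highest in different types of nuclei, although fibroblasts and neurons held both. Averaged over all wells, Csf1 was highest in microglia (206 ± 196 CPM, n = 21) and oligodendrocytes (202 ± 80.2 CPM, n = 24), which did not differ beyond their spread. The microglial mean joins the 9 WT wells, all at 0, with the 12 Arc wells. By mean, its place at the top holds in Arc-veh and Arc-PMX but not in WT, where no microglial well had a count. Microglia and oligodendrocytes had 393 ± 92.5 and 260 ± 30.7 CPM in Arc-veh. In Arc-PMX they had 328 ± 97.5 and 249 ± 71.4 CPM, which did not differ beyond their spread. Wells of the 2 types overlapped in both Arc groups. Fibroblasts (92.7 ± 80.0 CPM), endothelial nuclei (86.8 ± 111 CPM), astrocytes (79.1 ± 31.9 CPM) and ependymal nuclei (72.8 ± 66.0 CPM) followed without a gap beyond the spread. Among neurons Csf1 was largely a transcript of dentate granule cells, the projection neurons of the dentate gyrus, at 19.7 ± 6.33 CPM (n = 24). CA1 and CA3 pyramidal neurons and both interneuron classes had 3.87 CPM or less. Neurons that could not be given a class averaged 4.56 ± 2.06 CPM. Pooled over wells, 1 of their clusters (829 nuclei) reached 11.8 CPM, where the dentate granule clusters ran from 10.9 to 21.1 CPM.

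Il34 (ENSMUSG00000031750.15) lies on the minus strand of mm10 at chr8:110741829-110805924. It was highest in pericytes, the mural cells of capillaries, at 721 ± 446 CPM (n = 13), and next in fibroblasts of the meninges and vessels at 155 ± 89.1 CPM (n = 12). Each of these steps was larger than the SD of the difference. In neurons, averaged over all wells, Il34 was highest in CA3 pyramidal neurons (30.6 ± 6.54 CPM) and in MGE interneurons, the class that holds the parvalbumin and somatostatin cells (29.2 ± 9.80 CPM). These did not differ beyond their spread, and CGE interneurons (12.8 ± 8.35 CPM) and CA1 neurons (12.5 ± 3.14 CPM) came below them. The order of MGE interneurons and CA3 neurons varied by group. It was 39.2 and 32.9 CPM in WT-veh, 31.0 and 30.5 CPM in WT-PMX, 29.1 and 28.8 CPM in Arc-veh, and 17.5 and 30.0 CPM in Arc-PMX. Dentate granule neurons, the main neuronal place of Csf1, had the lowest Il34 of the 14 types at 1.23 ± 0.98 CPM. Microglia, astrocytes and oligodendrocytes had 2.39 to 2.96 CPM. An Il34 transcript was seen in 36.7% of CA3 nuclei (Wilson 95% interval 34.5 to 39.0) against 0.673% of dentate granule nuclei (0.521 to 0.869), where the median depths were 17409 and 5996 transcripts.

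Counted by source, neurons held 75.6% of the 4388 Il34 counts of all nuclei (CA3 21.4%, CA1 14.2%, MGE interneurons 12.7%) and pericytes, with few nuclei, 5.56%. The neurons that could not be given a class held more than CA3 neurons (1045 against 937 counts). Of the Csf1 counts in WT-veh, 47.4% came from neurons (30.5% from dentate granule cells alone), 15.02% from oligodendrocytes, 12.04% from astrocytes and 0% from microglia. In Arc-veh 24.4% came from neurons, 19.7% from oligodendrocytes, 17.0% from microglia and 16.5% from astrocytes. Neurons were also a smaller part of the nuclei, on average 48.7% in Arc-veh wells against 62.0% in WT-veh wells. Unnamed nuclei held 13.3% of Il34, 18.6% of Csf1 and 48.2% of Csf1r counts. Most of the unnamed Csf1r lay in 1 cluster of 945 nuclei, led by Inpp5d, Dock2 and Ly86 and with a median of 4046 transcripts, that also carried markers of oligodendrocytes. Over the 4 groups, microglial markers summed to 2014 to 2728 CPM in these mixed nuclei and to 9975 to 13240 CPM in the named microglia. Oligodendrocyte markers summed to 4533 to 8583 CPM in the mixed nuclei and to 188 to 294 CPM in the named microglia. The mixed nuclei held 85 of the 839 Csf1 counts of WT-veh and 347 of the 2243 of Arc-veh, none of which count as microglial above.

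**Figure D2:**
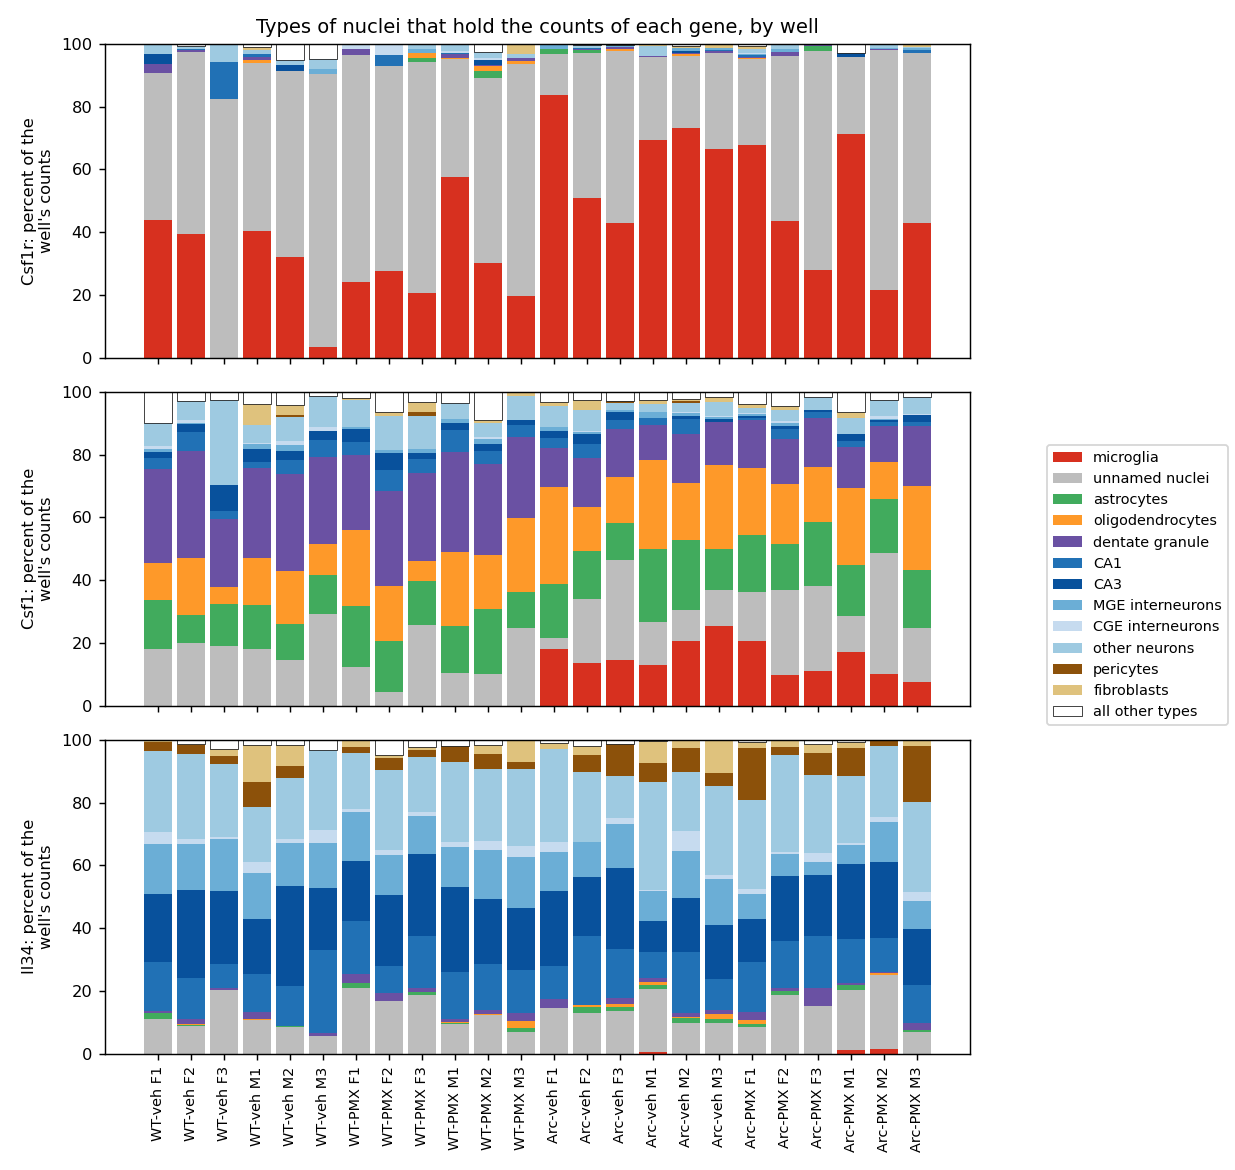
Percent of the counts of Csf1r, Csf1 and Il34 in each of the 24 wells of nuclei that came from each type (stacked bars, 0 to 100 percent). Nuclei named microglia contribute no Csf1 in the 12 WT wells and 7.61 to 25.5 percent in the 12 Arc wells, and neurons (purple and blue) hold most of Il34 in every well. WT-veh F3 had 0 such nuclei, WT-veh M3 had 3 and WT-PMX F3 had 9.

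Compared between genes on a scale per length, the order of the ligands depended on the length used. Per kilobase of gene body, Csf1 was above Il34 in whole wells of nuclei by 2.13-fold in WT-veh (5 of 6 wells) and by 6.08-fold in Arc-veh (6 of 6 wells). Per kilobase of exon, Csf1 was below Il34, at a ratio of 0.239 in WT-veh and 0.684 in Arc-veh (0 of 6 wells above in both). The 2 scales differ by a constant factor and so carry the same change between groups, and no order of the ligands is given.

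The comparison of Arc-veh with WT-veh asks how the axis differs where plaques are present. The clearest difference lay in the ligand made by the receptor's own cells. Csf1 had no count in microglial nuclei of WT-veh or WT-PMX and was present in every Arc well. In WT-veh, 0 of 108848 microglial transcripts were Csf1, a level that 3 counts over the group would put at 27.6 CPM, and in WT-PMX 0 of 143426 were (20.9 CPM). In Arc-veh, Csf1 was at 216 CPM in the lowest well, 430 CPM at the median and 468 CPM in the highest. In Arc-PMX the values were 200, 341 and 464 CPM. All Arc wells lay above the floor of both WT groups, and the means were 393 ± 92.5 CPM for Arc-veh and 328 ± 97.5 CPM for Arc-PMX (n = 6 each). The Arc-veh mean was thus 14.2-fold the WT-veh floor of 3 counts, for the nuclei named microglia and without the spread between WT-veh wells. The exact 95% upper limit of the pooled WT-veh level was 33.9 CPM. Other ways of naming nuclei gave smaller folds, described below.

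Tested with edgeR's quasi-likelihood test over 2218 genes in microglial nuclei, Csf1 had an adjusted p of 1.92e-06, and DESeq2 gave 3.58e-06. The gene passed the count filter through the Arc groups alone, where it was high, so these p-values add nothing to the counts themselves. In this comparison 11.4% of the genes tested were called in either direction, 6.36% higher and 5.0% lower. Each nucleus thinned to 500 transcripts, 16.3% ± 4.96 of the microglial nuclei of Arc-veh (n = 6) had a Csf1 transcript against 0 of 131 nuclei in WT-veh (n = 4). The exact permutation test over wells gave p = 0.00476, the smallest it can give, and an adjusted p of 0.0429. The adjusted p was above 0.05 once any Arc-veh well or any of the 4 WT-veh wells with at least 10 microglia was left out (up to 0.143). With WT-veh at 0 and Arc-veh above 0 in every well tested, this p was fixed by the absence of WT-veh counts and adds nothing to it. Without thinning, a Csf1 transcript was seen in 27.5% of Arc-veh microglial nuclei (Wilson 95% interval 24.3 to 30.9). In the same wells the share was 29.0% in oligodendrocytes (26.5 to 31.7), 22.4% in astrocytes and 16.4% in dentate granule neurons. It was 4.34% (2.79 to 6.68) in MGE interneurons, a class with little Csf1. Median depths were 1007.5 transcripts in microglia, 1126.5 in oligodendrocytes, 1775 in astrocytes, 5996 in dentate granule neurons and 8453 in MGE interneurons. The 6 markers of macrophages of the brain's borders were highest in the microglial cluster of WT-veh, where they summed to 285 CPM (31 counts, 2 of the 6 markers at 0). The sums were 83.7 CPM for WT-PMX (12 counts, 4 markers at 0), 97.7 CPM for Arc-veh (95 counts, 2 markers at 0) and 108 CPM for Arc-PMX (87 counts, 1 marker at 0), and their part in the result was not tested.

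The zero in WT held for the nuclei that could be named microglia. In the mixed unnamed cluster, WT-veh wells averaged 67.1 ± 17.8 CPM of Csf1 and Arc-veh wells 137 ± 41.6 CPM (n = 6 each). In an alternative added after seeing the data, that cluster alone differed by 1.10 on the log2 scale (edgeR adjusted p = 0.0133) and microglia together with it gave 1.82 (adjusted p = 1.24e-05). Naming nuclei singly, by whichever marker score was highest, gave 2.73 (adjusted p = 0.000179). Csf1 was higher in Arc-veh in each of these versions, with a size that depended on which nuclei were counted as microglia.

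Whole cells gave a second view. In CD11b-selected microglia Csf1 was at 86.2 CPM in 1 WT-veh well and at 0 in the other 2 with at least 10 microglia, and at 86.6, 0 and 0 CPM in WT-PMX. In Arc-veh the values were 134, 153, 156, 220 and 227 CPM, and in Arc-PMX they ran from 162 to 281 CPM around a median of 193 CPM. All Arc wells lay above all WT wells. These values leave out unnamed clusters of 474 and 271 cells that scored best as microglia, with 152 and 122 CPM of Csf1 pooled over all groups. Endothelial cells, astrocytes and pericytes of this preparation had 97.6, 98.5 and 123 CPM of Csf1, pooled likewise. The source of the counts in these other cells was not tested. The difference of 149 CPM between Arc-veh and WT-veh had an exact permutation p of 0.0179, the smallest that 5 against 3 wells allow, and 0.0536 after adjustment. Csf1 did not pass edgeR's count filter in these wells.

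**Figure D3:**
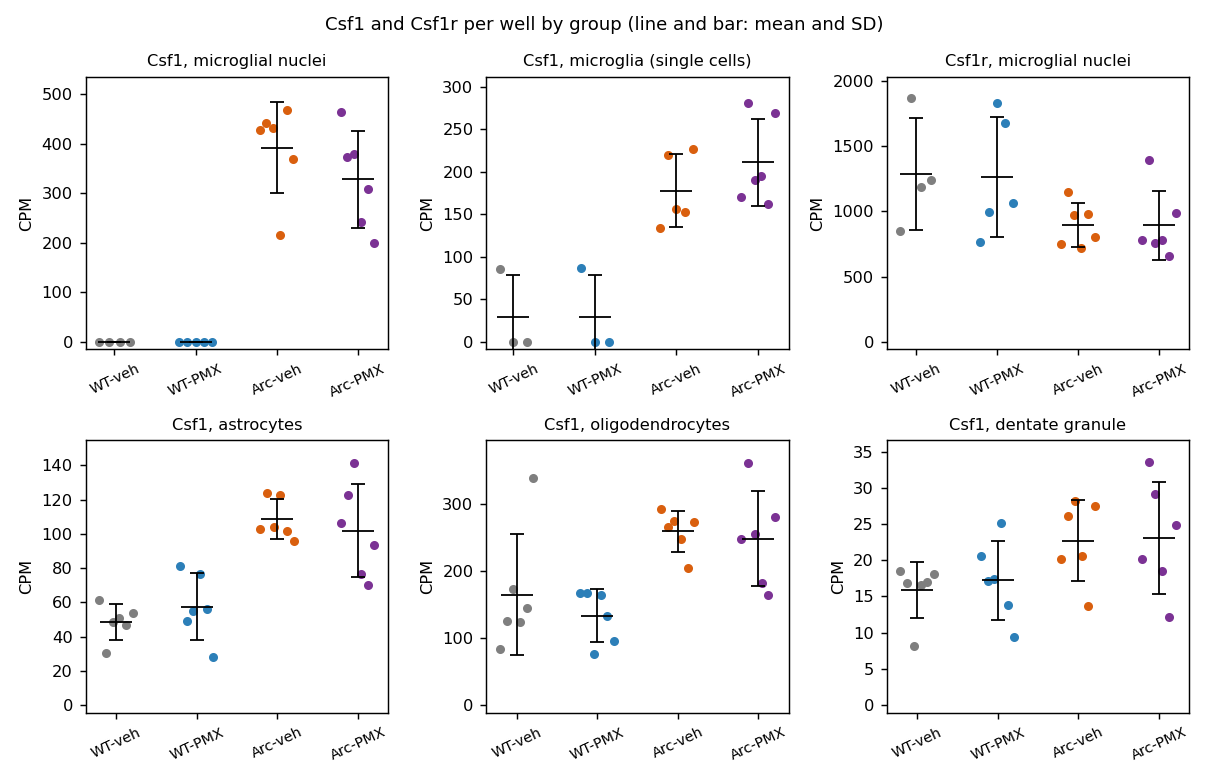
Csf1 in microglial nuclei, CD11b-selected microglia, astrocytes, oligodendrocytes and dentate granule neurons, and Csf1r in microglial nuclei, by group (CPM on a linear axis, 1 point per well, line and bar for mean and SD). Csf1 is 0 in all WT wells of microglial nuclei and higher in Arc-veh than WT-veh in astrocytes, while the groups overlap for Csf1r.

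Astrocytes, which ensheathe synapses and vessels, also had more Csf1 in Arc. Their wells ran from 30.5 to 61.5 CPM in WT-veh (median 49.6 CPM) and from 95.8 to 124 CPM in Arc-veh (median 104 CPM), without overlap. The log2 fold change was 1.19 ± 0.20 (SE; edgeR adjusted p = 3.81e-05, over 7326 genes of which 7.56% were called higher). In Arc-PMX the wells ran from 70.3 to 141 CPM and in WT-PMX from 28.0 to 81.3 CPM. The class joins 4 clusters, and different ones held most of it in WT and Arc. The largest of them, with Rorb and Slc1a2 among its leading genes, held 89.8% of the astrocytes of WT-veh and 34.7% of those of Arc-veh, and the cluster led by Gfap, Plce1 and Osmr held 1.47% and 54.7%. Within the first of these, Csf1 averaged 48.9 ± 9.23 CPM over WT-veh wells, the highest at 56.1 CPM, and 82.3 ± 20.6 CPM over Arc-veh wells, the lowest at 56.2 CPM (n = 6 each). The Gfap-led cluster stood at 119 ± 16.2 CPM in Arc-veh (n = 6), and no WT-veh well had 10 of its nuclei. In the cluster led by Aqp4, Rfx4 and Padi2, the wells overlapped (0 to 87.4 CPM in 4 WT-veh wells and 61.1 to 132 CPM in 6 Arc-veh wells). The values of the class therefore hold both a higher level within the largest WT cluster and a larger share of a cluster with more Csf1, and their parts were not separated.

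Oligodendrocytes, the myelinating glia, showed a rise of similar size. WT-veh wells had 84.5 CPM at the lowest, 135 CPM at the median and 339 CPM at the highest, and Arc-veh wells 205, 270 and 293 CPM. The WT-veh well M3 lay above all Arc-veh wells and the other 5 WT-veh wells below them. The log2 fold change was 1.045 ± 0.20 (SE; edgeR adjusted p = 0.000734, over 4637 genes of which 1.98% were called higher). The class joins 2 clusters, which held 48.1% and 51.9% of it in WT-veh and 53.9% and 46.1% in Arc-veh. In the first, WT-veh wells averaged 159 ± 135 CPM of Csf1 (n = 5) and Arc-veh wells 235 ± 39.7 CPM (n = 6), and in the second these means were 167 ± 80.6 CPM and 280 ± 37.4 CPM. The wells of the groups overlapped in both clusters. Oligodendrocyte precursors had too few counts to be tested (5 in WT-veh and 20 in Arc-veh).

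In neurons the difference did not pass. Over all neurons Csf1 averaged 6.30 ± 1.15 CPM for WT-veh and 8.73 ± 3.18 CPM for Arc-veh (log2 fold change 0.41 ± 0.21 SE, edgeR adjusted p = 0.651, with 0.0274% of 14622 genes called higher). In dentate granule neurons WT-veh wells had 8.15, 16.9 and 18.5 CPM and Arc-veh wells 13.7, 23.3 and 28.2 CPM (lowest, median and highest). These groups overlapped, with a log2 fold change of 0.44 ± 0.21 (SE; 95% interval 0.01 to 0.87; edgeR adjusted p = 0.518, with 0.135% of 10339 genes called higher).

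For the receptor itself, the direction within microglia depended on which nuclei were counted. Csf1r in WT-veh nuclei was at 846, 1186, 1241 and 1871 CPM, and in Arc-veh it ran from 717 to 1150 CPM around a median of 888 CPM. The groups overlapped, and the log2 fold change was −0.52 ± 0.24 (SE; 95% interval −1.02 to −0.02; edgeR adjusted p = 0.192). The log2 fold change was 0.47 when nuclei were named singly by marker score (adjusted p = 0.281), 0.38 in the mixed cluster alone (adjusted p = 0.437) and 0.72 in microglia together with that cluster (adjusted p = 0.0405). Thinned to 500 transcripts, 44.6% ± 9.96 of microglial nuclei in WT-veh and 38.9% ± 8.15 in Arc-veh had a Csf1r transcript (exact permutation p = 0.352, adjusted p = 1). In CD11b-selected cells Csf1r averaged 1052 ± 349 CPM for WT-veh (n = 3) and 734 ± 168 CPM for Arc-veh (n = 5), with a log2 fold change of −0.07 ± 0.31 (SE; edgeR adjusted p = 0.977). No direction is drawn from these values.

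Il34 was not found to differ between the genotypes in any type tested. Pericytes of WT-veh had 358, 454 and 564 CPM and those of Arc-veh 407, 609, 889 and 1881 CPM. The highest Arc-veh well, M1, held 11 pericytes. The log2 fold change was 0.85 ± 0.50 (SE; 95% interval −0.24 to 1.94; edgeR adjusted p = 0.49). In CA3 neurons WT-veh wells ran from 27.1 to 45.9 CPM and Arc-veh wells from 21.2 to 33.2 CPM (log2 fold change −0.19 ± 0.17 SE, edgeR adjusted p = 0.897). CA1 neurons had 12.8 ± 4.24 and 12.6 ± 2.32 CPM (n = 6 each), which differed by 0.05 ± 0.21 on the log2 scale (SE; edgeR adjusted p = 0.971). The values of CA1 and CA3 neurons were alike in all 4 groups to within their SD.

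MGE interneurons gave the Il34 comparison with the lowest unadjusted p, at rank 18 of 8011 genes for Arc-PMX against Arc-veh. Their medians were 40.5 CPM in WT-veh (27.7 to 47.8), 29.99 CPM in WT-PMX (25.8 to 36.6), 29.1 CPM in Arc-veh (20.8 to 41.1) and 18.04 CPM in Arc-PMX (11.7 to 22.9). Of the 6 Arc-PMX wells, 5 lay below the lowest Arc-veh well, and M2 overlapped. The log2 fold change was −0.48 ± 0.19 for Arc-veh against WT-veh (SE; edgeR adjusted p = 0.882) and −0.66 ± 0.22 for Arc-PMX against Arc-veh (adjusted p = 0.99995). Neither passed over the genes tested in this class, where edgeR and DESeq2 called 0 genes in either contrast and 445 and 242 genes had an unadjusted p below 0.05 in edgeR. The class joins 2 clusters, of 1296 and 548 nuclei, at 34.3 and 12.2 CPM of Il34 pooled over wells. The part of their mix in these values was not tested. Without thinning, an Il34 transcript was seen in 17.4% of the nuclei of WT-veh and 16.9% of WT-PMX. The share was 21.7% in Arc-veh, where the CPM was lower than in WT-veh, and 13.3% in Arc-PMX.

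**Figure D4:**
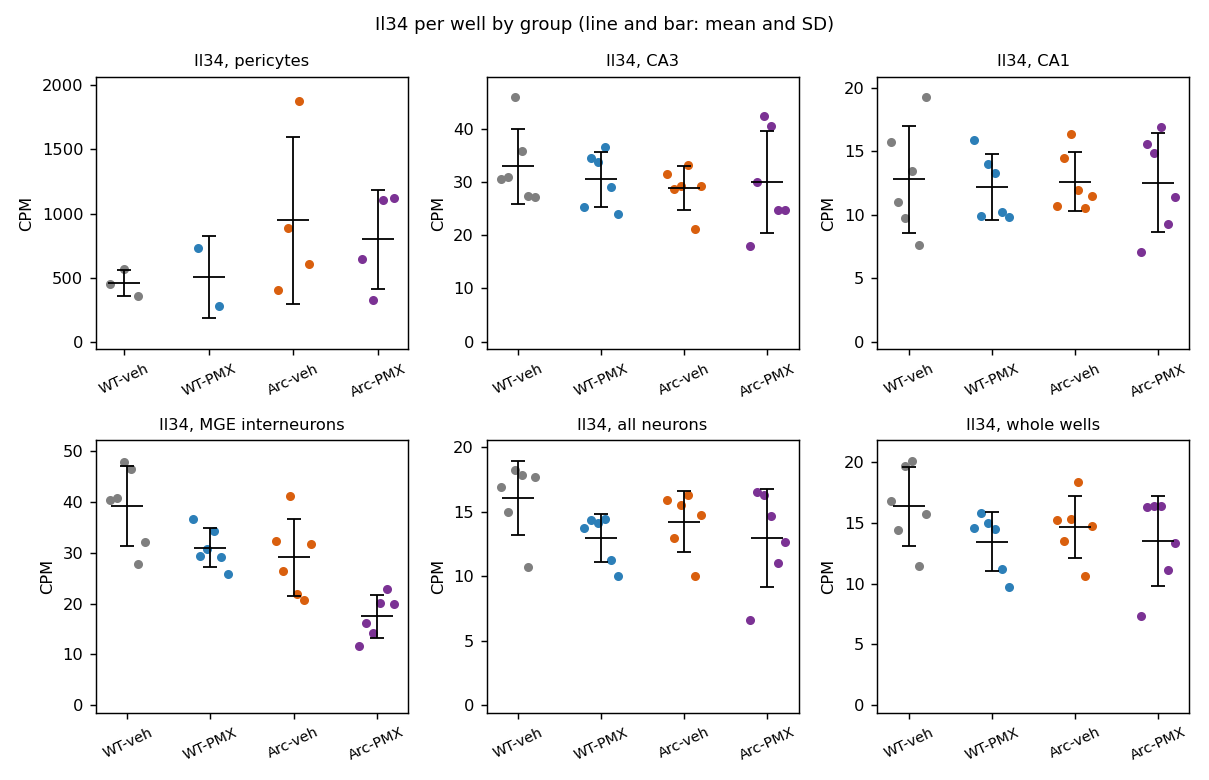
Il34 in pericytes, CA3 neurons, CA1 neurons, MGE interneurons, all neurons and whole wells, by group (CPM on a linear axis, 1 point per well, line and bar for mean and SD). Neighbouring groups overlap in every panel. In MGE interneurons the Arc-PMX wells (11.7 to 22.9 CPM) lie below all WT wells but overlap those of Arc-veh.

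In whole wells of nuclei the receptor and Csf1 were higher in Arc-veh and Il34 was not called. Csf1r rose from 5.85 ± 3.19 to 18.4 ± 8.80 CPM (log2 fold change 1.58 ± 0.32 SE, edgeR adjusted p = 0.00277) and Csf1 from 10.7 ± 2.81 to 27.6 ± 7.91 CPM (1.26 ± 0.20 SE, adjusted p = 0.000136), where 3.54% of 16475 genes were called higher. Csf1 wells did not overlap (5.48 to 13.03 against 19.2 to 40.4 CPM) and Csf1r wells did (2.52 to 10.7 against 8.93 to 30.7 CPM). Il34 was at 16.4 ± 3.28 and 14.6 ± 2.54 CPM (−0.23 ± 0.18 SE, adjusted p = 0.599). In whole wells, more cells of a type and more RNA per cell cannot be told apart. Microglia made up 0 to 1.91% of the nuclei in WT-veh wells and 5.91 to 9.13% in Arc-veh wells.

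The balance of ligand to receptor in a well was compared as a ratio of counts, which does not depend on depth. The log2 ratio of Il34 to Csf1r was 1.63 ± 0.885 in WT-veh and −0.21 ± 0.727 in Arc-veh (n = 6 each, difference −1.83, exact permutation p = 0.00433, adjusted p = 0.0260 over 6 comparisons). The adjusted p was above 0.05, at up to 0.0779, when any single well other than WT-veh M3 or Arc-veh F1 was left out, and the difference stayed between −2.05 and −1.57. The log2 ratio of Csf1 to Csf1r was 0.99 ± 0.62 and 0.68 ± 0.401 (difference −0.32, exact permutation p = 0.316, adjusted p = 0.379). Per receptor transcript, Il34 was lower in Arc-veh wells and no difference was detected for Csf1. The Il34 ratio uses the same whole-well counts in which Csf1r was higher and Il34 was not called, and is no separate result. It cannot be told apart from the larger share of microglia in Arc-veh wells. Microglia supplied 17.5% ± 4.88 of a well's Csf1 counts in Arc-veh and none in WT-veh, which restates the absence of counts above.

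Among the genes around the receptor in microglial nuclei, 3 genes of its signalling pathway were called, a share near that over all genes, and the calls in each of 2 lists of microglial state went 1 way. These lists were chosen with earlier results of these data known, and are described by counts and medians of log2 fold changes (Arc-veh against WT-veh). Of 27 genes of CSF1R signalling, 22 could be tested and 3 passed, 1 higher and 2 lower, beside 11.4% of all genes, and 1 of the 3 is named here. Pik3cd, the leukocyte catalytic subunit of PI3 kinase, was lower (−0.73 ± 0.24 SE, edgeR adjusted p = 0.0403). The median of the 22 was −0.03, beside 0.03 over all 2218 genes. Of those that did not pass, Inpp5d, a lipid phosphatase that opposes PI3 kinase, had −0.37 ± 0.14, Gab2, a docking adaptor, 0.44 ± 0.18, Lyn, a Src-family kinase, −0.42 ± 0.17, and Plcg2, a phospholipase, 0.01 ± 0.24.

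Of the 14 lineage factors, 10 could be tested, with a median of −0.07, and 1 passed higher and 1 lower, beside 11.4% of all genes in either direction. Bcl2, which protects from apoptosis, was higher (3.44 ± 0.52 SE, edgeR adjusted p = 1.74e-05) and Maf, a transcription factor of resident macrophages, was lower (−1.42 ± 0.27 SE, adjusted p = 0.000339). Spi1 (PU.1), the factor that drives Csf1r transcription in this lineage, had −0.44 ± 0.31 (adjusted p = 0.441), Runx1 0.18 ± 0.17, Fli1 −0.26 ± 0.17, Mef2a −0.43 ± 0.17 and Mef2c 0.35 ± 0.18, and none of these passed. Of the class III receptor kinases, the family of Csf1r with Kit, Flt3 and the PDGF receptors, and their ligands, 1 of 10 could be tested (Pdgfb, 0.62 ± 0.51 SE, adjusted p = 0.510). Of the other colony-stimulating factors and their receptors, 2 of 9 could be tested: Csf2rb (0.83 ± 0.56) and Csf3r (0.27 ± 0.22). Trem2, the 1 testable gene of 3 for other proteins that bind IL-34, had 0.96 ± 0.49 (adjusted p = 0.240). None of the 6 proliferation genes could be tested.

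Of 10 homeostatic genes, 9 could be tested and 5 fell, beside 5.0% of all genes, with a median of −0.92: Cx3cr1 (−0.92 ± 0.16 SE), the fractalkine receptor, P2ry12 (−0.79 ± 0.18), a purinergic receptor, Selplg (−1.14 ± 0.28), Siglech (−1.01 ± 0.19) and Olfml3 (−1.44 ± 0.44), all at an edgeR adjusted p of 0.0285 or lower. Of 14 plaque-associated genes, 10 could be tested, and of the 6 with counts in WT-veh all but Trem2 rose, beside 6.36% of all genes. Among them were Axl, a receptor for dying cells (3.53 ± 0.64 SE), Itgax (3.89 ± 0.87) and Apoe, a lipid carrier (2.02 ± 0.63). Clec7a, Gpnmb, Igf1 and Lpl had no count in WT-veh and passed the count filter through other groups, so they are not counted. The 4 untested genes, Cst7, Fth1, Spp1 and Tyrobp, had no count there either. The Arc-veh means of the tested 4 were 4.92-fold (Clec7a), 5.58-fold (Gpnmb), 11.8-fold (Igf1) and 6.71-fold (Lpl) the same floor of 3 counts. The median of the list was 2.39 with the 4 genes at these values and 1.92 without them. Csf1r, itself left out of this list, did not pass the test. Csf1 had no count in WT-veh. Neither had 28 genes over all the lists, among them Kit, Flt3, Csf2 and Mki67 beside the plaque-associated genes named above. An absence of counts in WT-veh is thus not particular to plaque-associated genes.

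**Figure D5:**
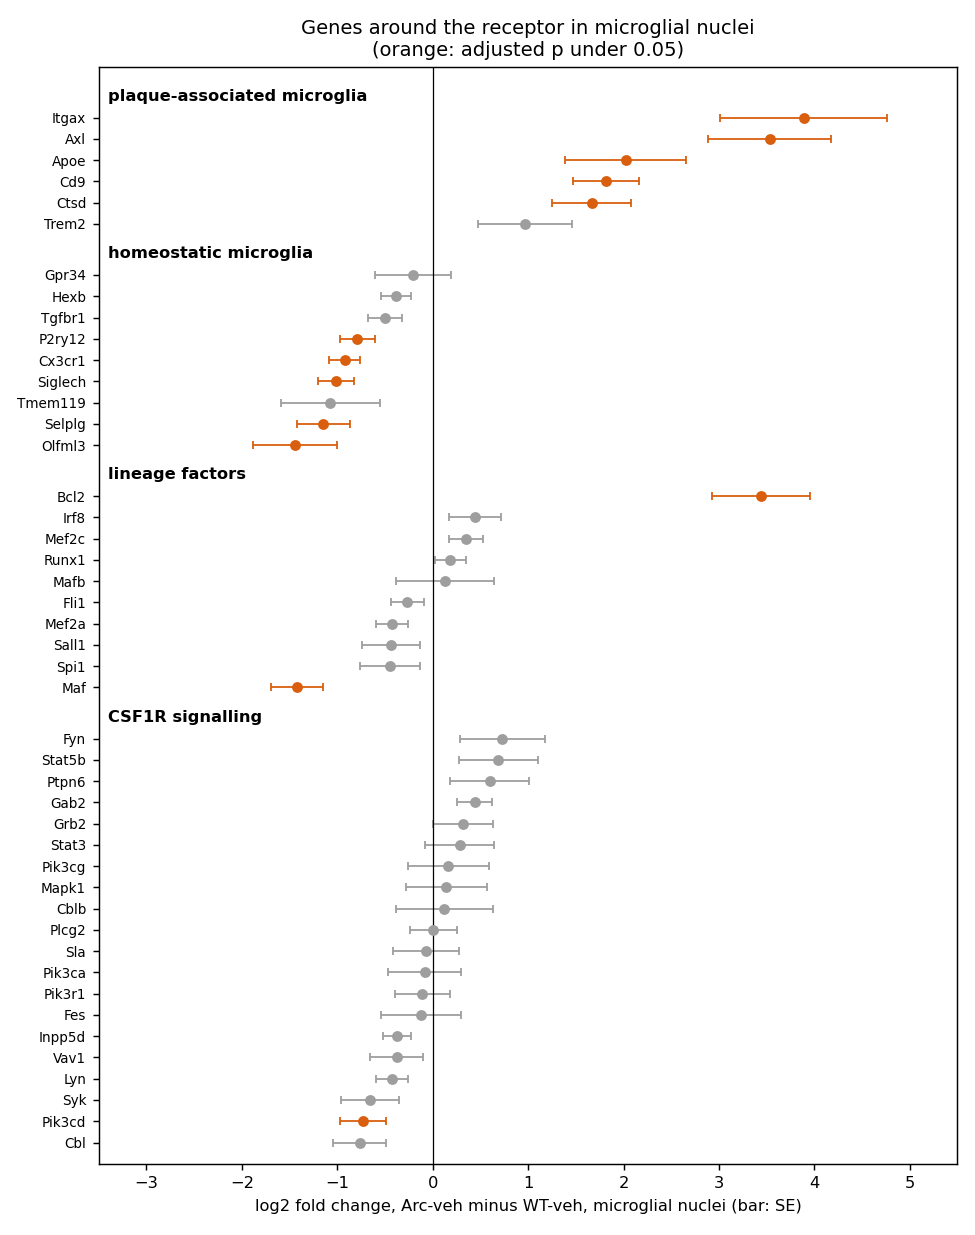
Log2 fold change of Arc-veh against WT-veh in microglial nuclei (x axis, bar: SE) for tested genes of 4 lists that had counts in WT-veh, less 2 signalling genes that passed, 1 higher and 1 lower, and are not reported by name, with genes past an adjusted p of 0.05 in orange. In CSF1R signalling Pik3cd is the 1 orange gene drawn of the 3 that passed, and all 5 orange homeostatic genes lie left of 0 and all 5 orange plaque-associated genes right of it.

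No member passed the test for PMX205 in any type tested. In microglial nuclei Csf1r differed by −0.03 ± 0.19 in Arc-PMX against Arc-veh (log2, SE; 95% interval −0.42 to 0.37) and by 0.07 ± 0.28 in WT-PMX against WT-veh (−0.50 to 0.63), and Csf1 by −0.30 ± 0.19 in Arc (−0.69 to 0.08; edgeR adjusted p = 0.999). In astrocytes Csf1 differed by −0.14 ± 0.17 in Arc and 0.35 ± 0.22 in WT, in oligodendrocytes by −0.08 ± 0.16 and 0.14 ± 0.22, and Il34 in all neurons by −0.17 ± 0.17 and −0.34 ± 0.17. In whole wells Csf1r differed by 0.18 ± 0.30 in Arc and 0.37 ± 0.33 in WT, Csf1 by −0.04 ± 0.19 and 0.22 ± 0.20, and Il34 by −0.15 ± 0.18 and −0.34 ± 0.18. All these had edgeR adjusted p-values of 0.988 or higher, and the intervals of the microglial values leave room for changes of about the size of their bounds. In CD11b-selected cells Csf1r averaged 1052 ± 349 CPM for WT-veh and 1584 ± 406 CPM for WT-PMX (n = 3 each; log2 fold change 0.91 ± 0.33 SE, edgeR adjusted p = 0.330), which did not pass, and 734 ± 168 and 766 ± 156 CPM in Arc-veh and Arc-PMX.

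The members stood against a near absence of calls. For Arc-PMX against Arc-veh, edgeR called 0.0% of genes in microglia, 0.0137% in astrocytes (1 of 7326), 0.0216% in oligodendrocytes (1 of 4637), 0.0% in neurons and 0.0% in whole wells. For WT-PMX against WT-veh it called 0.0% in each of these. At an unadjusted p below 0.05 there were 46, 141, 108, 276 and 258 genes for Arc and 127, 320, 187, 476 and 670 for WT, in that order of types, and DESeq2 called 0 in all. The difference between the PMX205 effects in Arc and in WT passed for no member tested. The lowest adjusted p was that of Csf1r in CD11b-selected cells, at 0.404 (difference −1.01 ± 0.40 SE, edgeR). The microglial share of a well's Csf1 counts was 17.5% ± 4.88 in Arc-veh and 12.7% ± 4.95 in Arc-PMX (exact permutation p = 0.126, adjusted p = 0.188), a difference of −4.78 points that turned to 2.46 points with the mixed cluster and 0.0437 points by marker score, and the 2 ligand ratios gave adjusted p-values of 0.316 or higher in both PMX205 contrasts.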

How the data were processed

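Nuclei and CD11b-selected cells of the hippocampus were barcoded by split-pool ligation in 48 first-round wells and sequenced as 7 sublibraries. The deposited matrices hold raw transcript counts, which the authors made with split-pipe on mm10 (bcl2fastq is named in the submitters' processing notes). Each sublibrary mixes all wells, so groups came from the sample sheet and the well was the replicate. Barcodes with 300 to 50000 transcripts were kept, with at least 300 genes and at most 10% mitochondrial counts for cells, and at least 400 genes and at most 1% for nuclei. Of 1516119 barcodes, 3831 cells and 45138 nuclei passed, and 8743 of these share a barcode name with a passing cell of another sublibrary. Doublets were removed by score (above 0.25), which left 43886 nuclei. Cells were clustered with scanpy 1.11.5 without the members, and clusters were named from marker lists by rules set after the clusters were seen. Unnamed nuclei made up 9.03 to 14.5% and neurons without a class 24.8 to 32.0% (of neurons) per group.

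Counts were summed per well and type (at least 10 cells) and tested in edgeR 4.0.16 (glmQLFit and glmQLFTest, TMM, filterByExpr, sex as covariate, Benjamini-Hochberg at 0.05 over all genes tested, all 4 groups in 1 fit). Single values were compared by two-sided exact permutation tests over wells. Since CD11b-selected wells pool mice, and wells of nuclei hold 1 mouse each, p-values measure the spread between wells. The self-test on simulated counts called, in microglia, 36 of 93 genes changed by 1 on the log2 scale and 89 of 91 changed by 2. These rates are for Arc-veh against WT-veh, with only better-counted genes changed and the same spread set for all genes. They do not give the rate of detection for PMX205 or for genes with few counts. The members and lists were chosen with earlier results of these data known. Named genes were the members, the 5 genes most like each over the types of nuclei, and list genes that passed in microglia or had the highest CPM there. Alternatives were DESeq2 1.42.0, other normalization, filters, cell naming, wells and sublibraries. A fold against a group at 0 was set against 3 counts over that group. Of the CSF1R signalling list, 2 genes are not reported here by name, and its count tested and median include them.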

Additional observations from a re-analysis of the deposited data

Results flagged for a closer look

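In 3 of 66 groups of wells, 1 well lay far from the rest by Dixon's test, and chance gives about 1 in 20. Csf1 in oligodendrocytes was at 339 CPM in WT-veh M3, the well with 3 microglia. Csf1 in WT-veh F3, the well with no named microglia, was at 8.15 CPM in dentate granule neurons and at 5.48 CPM over all nuclei, below the other WT-veh wells in both. The cause was not tested.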

How the results depend on the processing

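Over 47 results and 1140 alternative values, 1078 kept their direction and their side of the threshold. The rise of Csf1 in astrocytes, oligodendrocytes and whole wells and that of Csf1r in whole wells did so under all their alternatives. Csf1 in microglia was higher in Arc-veh under all of its own, but with no WT count its p-values are not a measure of stability, and its log2 value was 1.10 to 2.73 where the naming gave WT counts. The log2 Il34 to Csf1r ratio no longer passed without WT-veh F3 and M3 (−1.78, adjusted p = 0.0571) or with over 500 transcripts and genes per nucleus (−1.73, adjusted p = 0.104), or, within −2.05 to −1.57 over all 12 omissions, without 1 of 10 wells. The share of microglial nuclei with Csf1 no longer passed without 1 of 10 wells (15.3 to 17.6 percentage points), since fewer wells raise the smallest p possible. It was 0 in all 4 WT-veh wells, so its p-value restates that absence and the number of wells and is no measure of stability. The sign of 40 values changed, in 39 of them with neither value past the threshold, and the cause was not tested. For Csf1r in microglia it was 0.47 (marker score), 0.38 (the mixed cluster alone) and 0.72 (with it, past the threshold) for Arc-veh against WT-veh. For Arc-PMX against Arc-veh it was 0.00827 and 0.0220 without sublibraries 2 and 6 and −0.212 to 0.0596 without 1 well. For WT-PMX against WT-veh it was −0.0102 (only these groups), −0.0576 (without sublibrary 1) and −0.143 to 0.344 without 1 well. For Arc-veh against WT-veh, Csf1r in CD11b-selected cells turned to 0.284 (no filter), 0.0357, 0.000179 and 0.0508 (without sublibraries 3, 5 and 6) and ran from −0.277 to 0.0708 without 1 well. In the same contrast, Il34 in CA1 turned to −0.0702 without sublibrary 6 and ran from −0.0753 to 0.178 without 1 well. For Arc-PMX against Arc-veh the microglial share of Csf1 turned to 2.46 points (with the mixed cluster) and 0.0437 points (marker score). In the same contrast, without 1 well, Csf1 over all nuclei ran from −0.117 to 0.0648, Csf1 in oligodendrocytes from −0.191 to 3.04e-05 and Il34 over all nuclei from −0.232 to 0.00289. For WT-PMX against WT-veh, without 1 well, the log2 Csf1 to Csf1r ratio ran from −0.371 to 0.0286 and the share of nuclei with Csf1r from −1.72 to 6.80 points, against 1.97 points with all wells, 14.8 points when thinned to 300 transcripts and 19.0 points unthinned (adjusted p = 0.286 and 0.571). Unthinned, that share was 8.58 points higher in Arc-veh than in WT-veh. The depth of a microglial nucleus, near 1000 transcripts, limits all microglial shares.

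The deviations of same-numbered wells correlated at a median of −0.06, 0.17 and 0.04 in the 3 contrasts, over 0.1 in 1, 3 and 2 of 6 pairs. The highest was 0.387, for Arc-PMX against Arc-veh. Wells correlated best with their own number in 1, 3 and 2 of 6 cases. Whether wells of one number were processed together was not tested. With the number as a replicate block, calls in Arc-veh against WT-veh went from 252 to 207 in microglia, 911 to 881 in astrocytes and 109 to 100 in oligodendrocytes, and no member's call changed (Csf1 in astrocytes 1.21, in oligodendrocytes 1.06).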

Other observations

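Within the Arc wells, Csf1 was seen more often in microglial nuclei that carried a transcript of 8 plaque-associated genes (Cst7, Lpl, Axl, Itgax, Spp1, Clec7a, Gpnmb or Igf1, picked from the list after their values were seen). With each nucleus thinned to 500 transcripts, 21.1% of 492 nuclei with such a transcript and 9.70% of 742 without one had a Csf1 transcript. The share was higher in 11 of 12 wells (means over wells 21.0% ± 6.45 and 10.1% ± 3.23). Csf1r went the other way, at 32.1% and 38.4%, and was higher in the nuclei with a plaque-associated transcript in 1 of 12 wells. This is a description, with no test.

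The genes whose levels over 15 types of nuclei were most like those of Csf1r were Naip6 (Pearson r = 0.985 on log2 CPM + 1, among 11802 genes), Itgam (0.985), Spi1 (0.980), Fgd2 (0.980) and Ly86 (0.979). For Csf1 they were Elf2 (0.949), Spsb1 (0.917), Vps4b (0.907), Kat6a (0.907) and Cdk19 (0.900). For Il34 they were Gm42397 (0.879), Enpep (0.858), 1500009L16Rik (0.846), Myadm (0.834) and Gm13470 (0.834). Between the members, r was 0.644 for Csf1r and Csf1, −0.274 for Csf1r and Il34 and −0.227 for Csf1 and Il34. These are descriptions over types that share wells and differ in depth.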
